A study of Rattus norvegicus with 3 samples.

Results

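The genes described here make retinoic acid, bind it in the cytoplasm or carry its signal to DNA: the aldehyde dehydrogenases Aldh1a1 and Aldh1a2, the cellular retinoic acid binding proteins Crabp1 and Crabp2, the retinoic acid receptors Rara, Rarb and Rarg, and the retinoid X receptors Rxra and Rxrb. A probe was taken for a gene where its name on the array equalled the gene's symbol, ignoring case and a trailing suffix of the array design. Of the 9 genes, 8 had such a probe, 9 probes in all, out of 35497 genes and 41012 probes on the array, and no probe carried the name Rarg. The tested cells were induced pluripotent stem (iPS) cells of the rat line M13, untreated and grown on irradiated mouse embryonic fibroblast feeders, given by the labels as 3 replicates. They were set against mix1, 1 RNA of adult rat cells that combines cultured bone marrow cells and cultured primary ear fibroblasts. Each of the 3 two-colour whole-genome arrays held 1 iPS M13 replicate in Cy3 and mix1 in Cy5, and no array had the dyes exchanged.

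Retinoic acid is made from vitamin A (retinol) in a pair of oxidations, first to retinaldehyde and then, by the Aldh1a enzymes, to the acid. It enters the nucleus with the help of its binding proteins and acts through dimers of a retinoic acid receptor and a retinoid X receptor, which sit on DNA, recruit corepressors without ligand and exchange them for coactivators with it. In pluripotent cells added retinoic acid is a standard agent of differentiation, and in fibroblasts and marrow cells the pathway takes part in matrix production and blood cell maturation.

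M13 is 1 line, and the labels do not tie its 3 samples to different cultures. The p-values therefore reflect the variation among these 3 samples alone, and that variation may be technical. Since mix1 was 1 control RNA, its own spread is left out, and dye and cell type cannot be told apart. Between 53.5% and 60.8% of probes were well above background in the iPS M13 channel and between 52.4% and 61.0% in the mix1 channel. Most measured markers followed the labels: 14 of 14 measured fibroblast genes and 10 of 10 myeloid and blood cell genes were called lower in iPS M13. Of 14 pluripotent cell genes listed, 7 were measured, of which 6 were called higher and 1, at -0.15, was not called. Nanog, Sall4, Tdgf1, Utf1 and Zfp42 had no probe under these names, and Dnmt3l and Esrrb were too dim to be tested. With both RNAs required above background, 12 fibroblast and 7 myeloid and blood cell genes were called lower and 4 pluripotent cell genes higher. The 6 measured marrow stromal genes were mixed, with 4 called lower and 1, Adipoq, called higher. Over all genes tested, 25.4% were called lower and 18.8% higher. Two-colour arrays read RNA of a whole population, so fewer cells of a type and less RNA per cell cannot be told apart in any result. Whether RNA of the mouse feeder cells bound the rat probes was not tested.

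The probes that carry the results are 60 bases long, and their positions are those of rn3, the build named in the file headers. No annotation of that build was used here, so exons and untranslated parts are not stated. The Crabp1 probe is shown because it measured the largest difference among these genes, and its chr8:58339877-58344185 span of 4309 bases for a probe of 60 bases means that its letters are not contiguous in that build.
Crabp1: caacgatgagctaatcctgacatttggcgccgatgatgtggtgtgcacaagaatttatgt

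Both probes named Rarb are shown because only 1 of them was bright enough to be tested. The tested one lies at chr15_random:324128-324187 and the dim one at chr15_random:319377-319436, with ascending coordinates for both.
Rarb, tested probe: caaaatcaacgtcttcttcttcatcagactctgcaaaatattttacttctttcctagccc
Rarb, dim probe: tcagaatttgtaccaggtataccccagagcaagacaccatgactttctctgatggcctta

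One probe outside the rule is shown because its description in the array file, though not its name, gives retinoic acid receptor gamma (Rarg). It lies at chr7:141072166-141072225, with descending coordinates.
Rarg by description: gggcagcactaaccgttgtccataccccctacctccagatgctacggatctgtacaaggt

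No run of 20 bases of these or of the other member probes was found in another probe of the array on either strand.

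Crabp1 was called far lower and Aldh1a1 higher in iPS M13 than in mix1, and the other 5 genes tested had smaller ratios. A call needed a Benjamini-Hochberg adjusted p under 0.05 in limma, over all probes kept, and a difference of at least 2-fold. Of the 7 member genes tested, 1 was called higher and 1 lower, or 2 of 7 in either direction. Over all 20343 genes tested, 18.8% were called higher, 25.4% lower and 44.2% in either direction. All 7 passed the adjusted p alone, as did 96.1% of all genes, so that threshold separates little in these arrays and the fold size decided most calls. Ratios are given as log2 of iPS M13 over mix1; their median was -0.87 over the 7 genes and -0.023 over all genes tested.

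**Figure D1:**
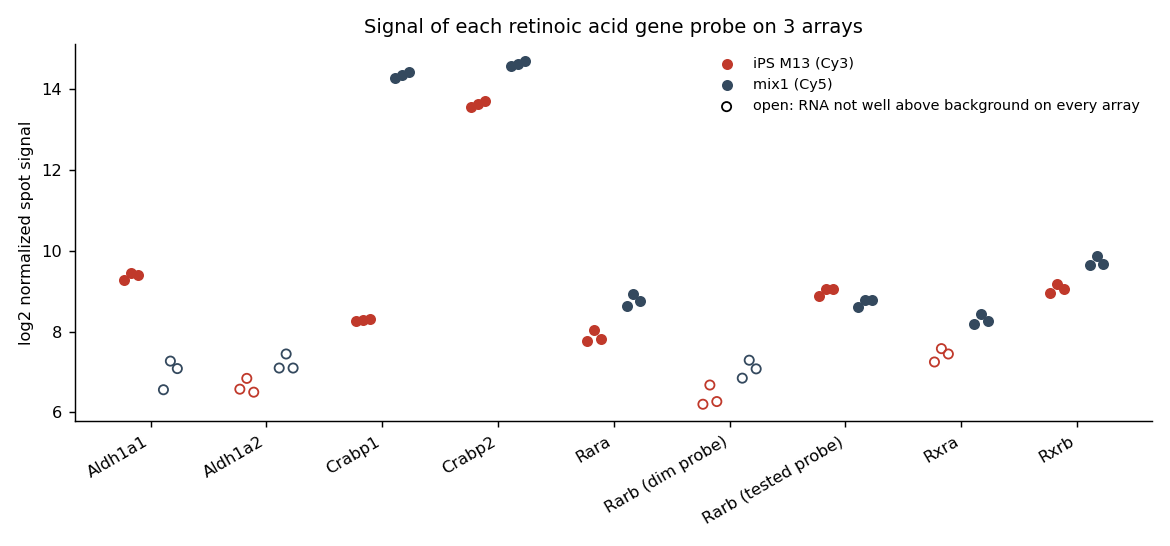
Log2 normalized spot signal (y axis) of each probe of the retinoic acid genes (x axis) on 3 arrays, iPS M13 in red and mix1 in dark blue, with open symbols where an RNA was not well above background on every array. Signals compare the 2 RNAs within a probe and not one probe with another; the Crabp1 points lie near 8.3 in iPS M13 and near 14.3 in mix1.

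Among the genes of synthesis, Aldh1a1, a retinaldehyde dehydrogenase that makes retinoic acid and is also known from many adult epithelia and stem cells, was higher in iPS M13. Its log2 signals were 9.27, 9.44 and 9.39 in iPS M13 on arrays 1, 2 and 3, against 6.56, 7.27 and 7.08 in mix1 (probe at chr1:223936881-223936940). Every iPS M13 value lay above every mix1 value, and mix1 was well above background on 0 of 3 arrays. The probe was thus kept for the test through its iPS M13 channel alone, and that filter favours such a separation. Under the reported processing its level was at least 4.51-fold higher in iPS M13 (limma, adjusted p = 1.19e-04). Here and below, such a bound holds for that processing, and the adjusted p beside it tests the log2 ratio against 0. This bound set the iPS M13 mean against the higher, on each array, of the mix1 signal and the lowest mix1 signal well above background, after scaling between arrays. That lowest signal was 7.35, 4.72 and 7.14 in log2 on arrays 1, 2 and 3, so it limits little on array 2. The measured means were 9.37 ± 0.09 in iPS M13 and 6.97 ± 0.37 in mix1, with a log2 ratio of 2.40 ± 0.28 (SD, n = 3). The ratio itself depended on how dim signals were handled. It was 5.02 with the scanner software's processed signals and 3.18 with a background offset of 0 in place of 50. With a linear trend on probe GC content taken off each array the ratio was 2.03, below the 2.17 that the bound comes to in log2.

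Aldh1a2, the main retinaldehyde dehydrogenase of the early embryo, was too dim to be tested. Its log2 signals were 6.57, 6.84 and 6.50 in iPS M13, well above background on 0 of 3 arrays, and 7.10, 7.44 and 7.10 in mix1, well above background on 1 of 3 (chr8:75790115-75790174). No difference in its level can be read from a probe this near background. Aldh1a3, the remaining enzyme of this family, was likewise not well above background in either RNA, with log2 signals of 6.64 to 7.21 in iPS M13 and 6.25 to 6.79 in mix1. Aldh1a1 was thus the only 1 of these 3 enzymes that was tested.

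Among the binding proteins, Crabp1, which holds retinoic acid in the cytoplasm and is linked to its breakdown, was called lower in iPS M13. Its log2 signals were 8.26, 8.29 and 8.32 in iPS M13, against 14.27, 14.34 and 14.42 in mix1. The groups stood far apart, both RNAs were well above background on all 3 arrays, and the SD between arrays was 0.03 in iPS M13 and 0.07 in mix1. The log2 ratio was -6.05 ± 0.04 (SD, n = 3; limma, adjusted p = 5.96e-07), which is a level 66.4-fold lower in iPS M13. Crabp1 stood at percentile 1.22 of the log2 ratios of all genes tested.

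Crabp2, which carries retinoic acid into the nucleus and hands it to the receptors, had a ratio close to the 2-fold minimum. Its log2 signals were 13.57, 13.64 and 13.72 in iPS M13, against 14.57, 14.63 and 14.70 in mix1 (chr2:179984104-179984163). No iPS M13 value reached the lowest mix1 value. The log2 ratio was -0.99 ± 0.02 (SD, n = 3; limma, adjusted p = 3.97e-06), a 1.99-fold difference that was not called. Both binding proteins therefore had ratios below 0 on every array, at -6.10 to -6.01 for Crabp1 and -1.01 to -0.98 for Crabp2.

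**Figure D2:**
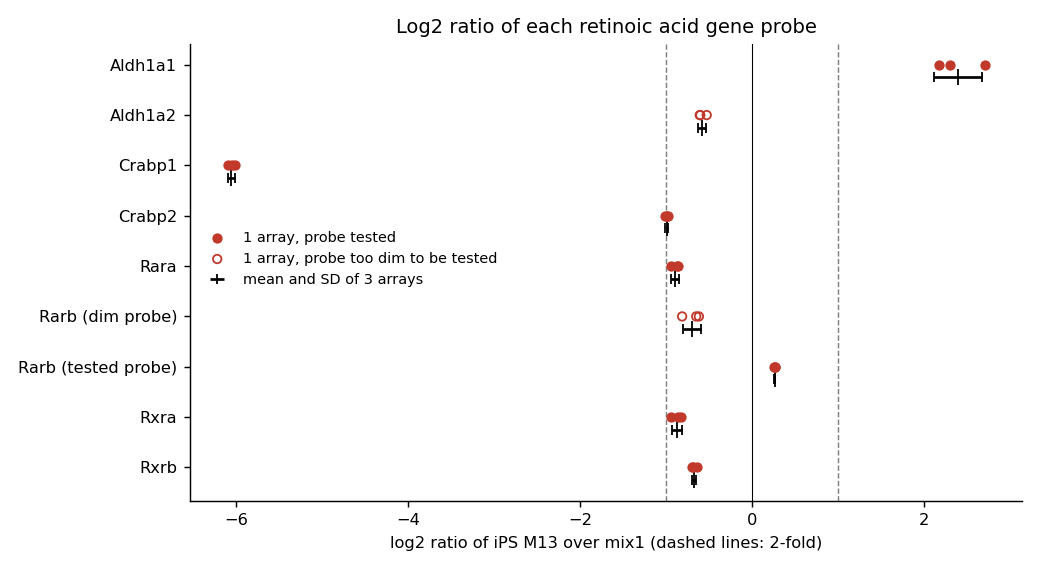
Log2 ratio of iPS M13 over mix1 (x axis) for each probe of the retinoic acid genes (y axis), as points for the 3 arrays and a tick with bars for their mean and SD, with dashed lines at 2-fold. Crabp1 at -6.05 and Aldh1a1 at 2.40 lie outside the dashed lines, and the tested Rarb probe at 0.27 is the only other one above 0.

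Of the retinoic acid receptors, which are ligand-activated transcription factors, Rara was not called. Its log2 signals were 7.77, 8.05 and 7.82 in iPS M13, against 8.63, 8.92 and 8.76 in mix1, from a probe whose span at chr10:87764271-87764471 covers 201 bases. The iPS M13 values were below the mix1 values on each array, at a log2 ratio of -0.89 ± 0.04 (SD, n = 3; limma, adjusted p = 1.75e-05). With a background offset of 0 in place of 50 the ratio was -1.06, past the 2-fold minimum.

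Rarb, a receptor gene that is itself switched on by retinoic acid in many cells, had 1 probe that could be tested and 1 that was dim in both RNAs. The tested probe had log2 signals of 8.89, 9.06 and 9.05 in iPS M13, against 8.61, 8.79 and 8.78 in mix1. Its log2 ratio was 0.27 ± 0.01 (SD, n = 3; limma, adjusted p = 1.04e-04), a 1.21-fold difference that was not called. The dim probe had log2 signals of 6.20, 6.68 and 6.27 in iPS M13, against 6.85, 7.29 and 7.08 in mix1, and neither RNA was well above background on any array. Its log2 ratio, -0.69 ± 0.10 (SD, n = 3), was not tested, and no difference in level can be read from it. After a linear trend with probe GC content was taken off each array, the tested probe had a ratio of -0.023 (limma, adjusted p = 0.199), so the sign of its small ratio depended on that setting.

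The tested Rarb probe lies among probes of another gene. The array places 4 probes of LOC361100, which RefSeq now names Top2b, the DNA topoisomerase II beta gene, at chr15_random between 323538 and 336877, so that the tested Rarb probe falls inside their span. Their coordinates run in descending order and those of the Rarb probes in ascending order. The nearest of them, 0.293 kb away, had log2 signals of 14.20, 14.45 and 14.22 in iPS M13, against 12.71, 12.91 and 12.72 in mix1. That probe was called higher in iPS M13, with a log2 ratio of 1.51 ± 0.02 (SD, n = 3; limma, adjusted p = 2.07e-06). The probes 12.69 and 11.806 kb away had ratios of 1.26 ± 0.06, called higher, and 0.73 ± 0.03, not called (SD, n = 3 each). A further one, 0.59 kb away, was dim in both RNAs at 0.18 ± 0.10. The ratio of the tested Rarb probe thus lay below those of the 3 measured Top2b probes. Whether this probe reads Rarb RNA, and whether Top2b transcripts contributed to its signal, was not tested. The results given for Rarb as a tested gene are those of this probe.

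**Figure D3:**
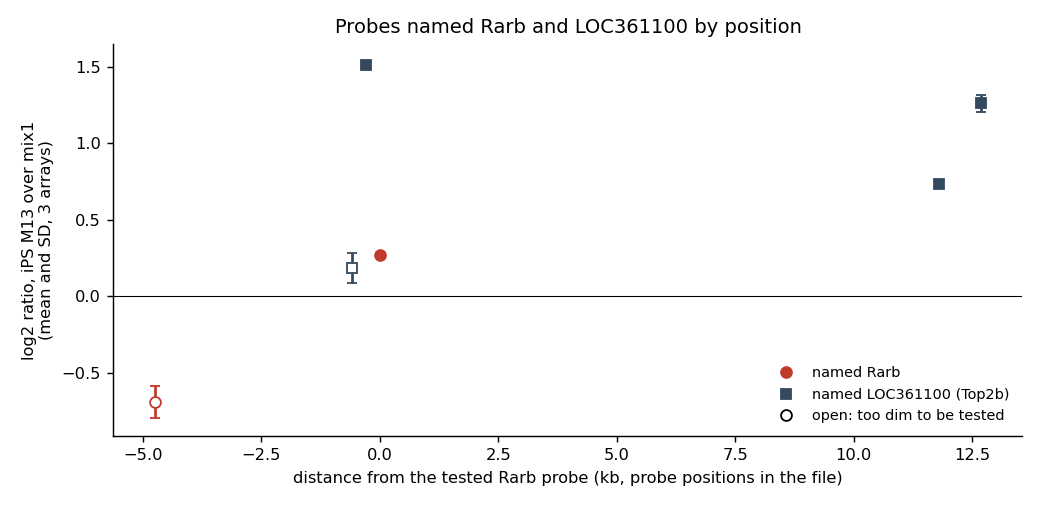
Log2 ratio of iPS M13 over mix1 (y axis, mean and SD of 3 arrays) of the probes named Rarb (circles) and LOC361100, now Top2b (squares), against their distance in kb from the tested Rarb probe (x axis), with open symbols for probes too dim to be tested. The tested Rarb probe, at 0.27, lies within the span of the Top2b probes, whose measured ratios are 0.73 to 1.51, and the dim Rarb probe, at -0.69, lies outside it.

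No probe carried the name of Rarg, the third retinoic acid receptor. The probe described as Rarg had log2 signals of 7.60, 7.98 and 7.51 in iPS M13, well above background on 2 of 3 arrays, against 8.33, 8.68 and 8.26 in mix1. Its log2 ratio was -0.73 ± 0.02 (SD, n = 3; limma, adjusted p = 1.08e-05) and was not called. A further probe, described as similar to receptor beta-2, was dim in both RNAs on all arrays, with a log2 ratio of 0.06 ± 0.07 (SD, n = 3). Neither probe enters the counts of members.

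The retinoid X receptors are the shared partners of the retinoic acid receptors and of several other nuclear receptors. Rxra had log2 signals of 7.25, 7.58 and 7.44 in iPS M13, well above background on 2 of 3 arrays, against 8.18, 8.43 and 8.27 in mix1 (chr3:6689985-6690044). The iPS M13 values were lower on each array, at a log2 ratio of -0.87 ± 0.06 (SD, n = 3; limma, adjusted p = 3.14e-05), and were not called. The ratio passed the 2-fold minimum with the processed signals and in the authors' value table, at -1.24 in each, and with an offset of 0, at -1.11.

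Rxrb had log2 signals of 8.96, 9.18 and 9.04 in iPS M13, against 9.64, 9.87 and 9.68 in mix1 (chr20:4955759-4955818). Its log2 ratio was -0.67 ± 0.03 (SD, n = 3; limma, adjusted p = 1.81e-05), not called. Rara, Rxra, Rxrb and the probe described as Rarg thus had ratios within -0.89 to -0.67 as reported, and differences between them of the size of the SDs have no order. With the GC trend taken off, Rara, Rxra and Rxrb stood at -0.67, -0.57 and -0.15, so the size of these ratios depended on that setting. The percentiles of Rara, Rxra and Rxrb among all genes tested were 27.5, 27.9 and 32.2. Rxrg, the third retinoid X receptor and no member here, was called higher, with a log2 ratio of 2.10 ± 0.50 (SD, n = 3; limma, adjusted p = 0.00123). Its log2 signals were 9.81, 10.03 and 9.89 in iPS M13, against 7.22, 8.45 and 7.76 in mix1, where 1 of 3 arrays was well above background. A second Rxrg probe was too dim to be tested, at 0.65 ± 0.20.

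The sizes of these ratios depended on how the channels of an array were brought to 1 scale. The median log2 ratio of all genes tested was -0.023 after loess, 0.29 with the processed signals, 0.58 after median centring and 0.52 with no normalization within arrays. Relative to the all-gene median of each of these and the other settings tried, Crabp1 lay between -6.31 and -5.79 and Aldh1a1 between 2.03 and 4.73. Crabp2 lay between -1.04 and -0.47, Rara between -1.26 and -0.67, Rxra between -1.53 and -0.57 and Rxrb between -0.71 and -0.15. Those 4 genes were thus below the all-gene median in each setting, while Rarb lay between -0.023 and 0.39. As a plain ratio, not set against the all-gene median, Rxrb came nearest to 0 among the members reported below 0, at -0.045 after median centring. Relative to the all-gene median it lay at -0.62 in that setting and came nearest to 0 at -0.15, with the GC trend taken off.

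**Figure D4:**
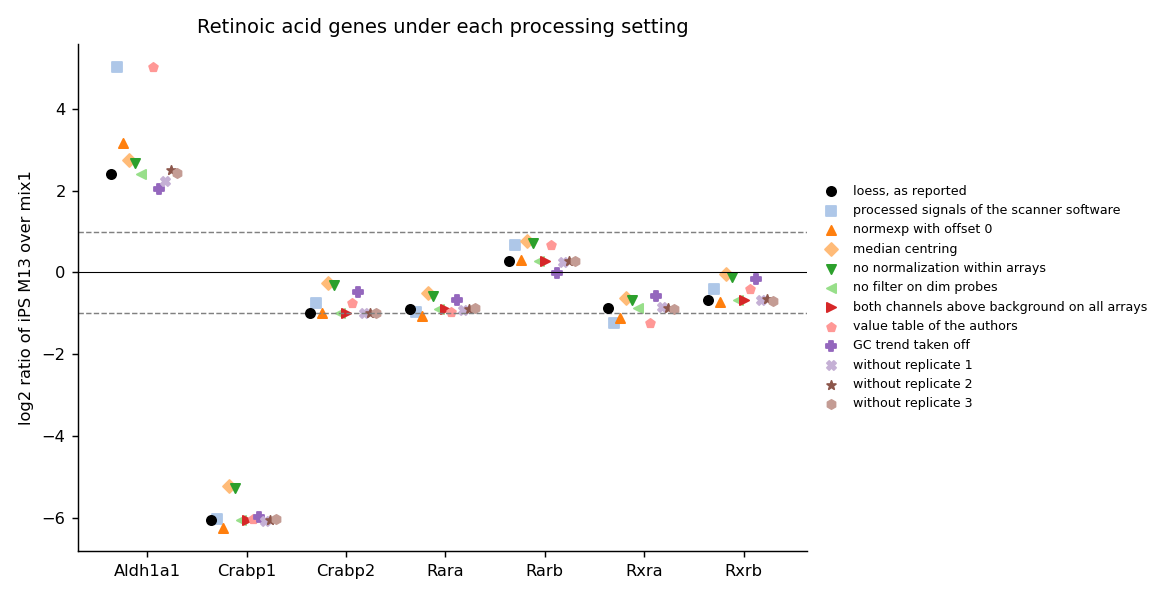
Log2 ratio of iPS M13 over mix1 (y axis) of each retinoic acid gene tested (x axis) under each processing setting (symbols, the reported loess values in black), with dashed lines at 2-fold. Crabp1 stays between -6.25 and -5.21 and Aldh1a1 between 2.03 and 5.02, while Rarb lies between -0.023 and 0.77.

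The 3 genes whose ratios lay nearest to those of Crabp1, by Euclidean distance over the 3 arrays among 9037 named genes above background in both RNAs, were Sncg, a member of the synuclein family (-6.06 ± 0.03), the matrix protein gene Fbln1 (-6.04 ± 0.04) and Nbl1, which encodes a secreted BMP antagonist (-6.06 ± 0.05; SD, n = 3 each). The distances were 0.0248, 0.0371 and 0.0433. The nearest to Rarb, the highest member measured in both RNAs, were the splicing factor gene Crnkl1, the polyadenylation factor gene Cpsf1 and the ubiquitin ligase scaffold gene Cul1, at distances of 0.00452, 0.00978 and 0.0124. All 3 had a log2 ratio of 0.27.

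The rest of the pathway was counted from fixed lists, chosen with earlier results of these data known. Each count below is to be read beside the shares over all genes tested, 18.8% called higher and 25.4% called lower. No list was tested as a set. Of 12 genes of retinol uptake and storage, 7 were tested, of which 3 were called higher and 2 lower in iPS M13, at a median log2 ratio of 0.64. Lrat, which esterifies retinol for storage, was at least 5.96-fold higher in iPS M13 under the reported processing (limma, adjusted p = 9.60e-05). Its mix1 signal was well above background on 0 of 3 arrays, so it was kept through iPS M13 alone. The log2 ratio was 2.65, but 2.28 with the GC trend taken off and 2.54 without array 1, so the bound does not hold in every setting. A second Lrat probe was dim in both RNAs. Lpl, a lipase that helps cells take up retinyl esters, was lower at -1.90 ± 0.02 (SD, n = 3). Stra6, the retinol transporter of the cell surface, was dim in both RNAs.

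Of 19 retinol and retinaldehyde oxidoreductases, 16 had a probe and 7 were tested, of which 0 were called higher and 3 lower, at a median log2 ratio of -0.999. Over all genes, 18.8% were called higher and 25.4% lower. The 3 were Dhrs4 at -1.85 ± 0.03, Dhrs3, which turns retinaldehyde back into retinol, at -1.56 ± 0.04, and Adh7, a retinol-oxidising alcohol dehydrogenase, at -1.34 ± 0.01 (SD, n = 3 each). Scaling decided part of this: after median centring 1 was called lower and 1 higher. That setting raised the median of all genes to 0.58. Relative to it Dhrs4, Dhrs3 and Adh7 lay at -1.58, -1.42 and -1.07. Rdh10, which oxidises retinol to retinaldehyde in the embryo, was not called at 0.51 ± 0.09 (SD, n = 3). It passed 2-fold at 1.10 with the processed signals and in the authors' value table, where 2 of the list were called higher and 2 lower, and stood at 0.14 with the GC trend taken off.

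Of 5 genes listed here under retinoic acid breakdown, 4 were tested and 2 were called lower, with 0 called higher and a median log2 ratio of -1.23. Over all genes, 25.4% were called lower and 18.8% higher. The highest ratio of the list was 0.95, which was not called. With the processed signals, the authors' value table or an offset of 0, 1 gene was called higher. The same count came after median centring, with no normalization and with the GC trend taken off. With both RNAs required above background, 0 were called in either direction. Cyp26a1, the main enzyme that clears retinoic acid in embryonic cells and a direct target of its receptors, had log2 signals of 6.95, 6.39 and 6.75 in iPS M13, against 8.68, 8.64 and 8.74 in mix1. It was at least 3.02-fold lower in iPS M13 (limma, adjusted p = 1.73e-04), where no array was well above background. Cyp4v3, a listed gene outside the Cyp26 family, was at least 7.01-fold lower by the 1 of its 2 probes that stood for it. That probe was not well above background in iPS M13 on any array, so both genes called lower were kept through mix1 alone. Whether Cyp4v3 clears retinoic acid in these cells was not tested. Cyp26b1, a second clearing enzyme, was not called at -0.46 ± 0.01 (SD, n = 3), and its ratio was 0.39 after median centring and 0.33 with no normalization. Those settings raised all genes together, and relative to the all-gene median Cyp26b1 lay at -0.19 in both and at -0.44 after loess.

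Of 13 further nuclear receptors that pair with retinoid X receptors, 6 were tested, of which 5 were called lower and 0 higher in iPS M13, at a median log2 ratio of -1.89. The shares over all genes were 25.4% lower and 18.8% higher. The 5 called included the orphan receptor gene Nr4a1, at -5.23 ± 0.04, and the liver X receptor gene Nr1h2, at -1.43 ± 0.02 (SD, n = 3 each). After median centring 3 were called lower, and Nr1h2, at -0.62, was not. Relative to the all-gene median of that setting Nr1h2 lay at -1.20. Among 6 genes listed here as other carriers and receptors, 4 were tested, and besides Rxrg, called higher, Rora was at least 3.15-fold lower. Rora was well above background in iPS M13 on 0 of 3 arrays, so it was kept through mix1 alone. Whether Rora responds to retinoic acid was not tested. Fabp5, a fatty acid binding protein that can carry retinoic acid to another receptor, was not called at 0.70 ± 0.02 (SD, n = 3), but passed at 1.19 with the processed signals.

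Of 13 receptor corepressors, 11 were tested by limma and 0 were called in either direction, while 11 had an unadjusted p under 0.05. Their ratios ran from -0.44 to 0.77 with a median of -0.17. Of 10 coactivators, all tested, 1 was called lower and 0 higher, at a median of 0.42. The 1 called was Kat2b, a histone acetyltransferase, at -1.22 ± 0.02 (SD, n = 3), whose other 2 probes were not called, at -0.96 and -0.91. Kat2b was not called with the processed signals or in the authors' value table, at -0.88 in each, after median centring, at -0.38, or with no normalization, at -0.43, and 0 coactivators were called lower in those settings. After median centring 5 corepressors and 6 coactivators were called higher, and with the processed signals 1 and 4. Calls over all genes moved the same way, with 36.4% called higher after median centring and 31.1% with the processed signals.

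**Figure D5:**
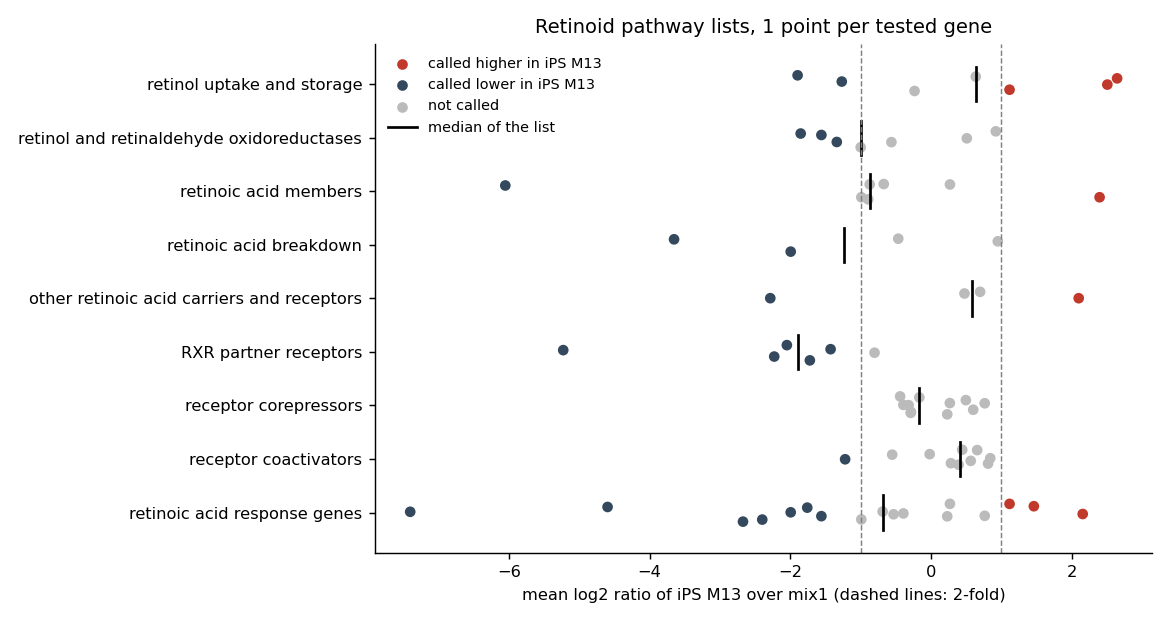
Log2 ratio of iPS M13 over mix1 (x axis, mean of 3 arrays) of each tested gene in 9 lists of the retinoid pathway (y axis), in red where called higher, dark blue where called lower and grey where not called, with a black bar at the list's median and dashed lines at 2-fold. The median is lowest for the RXR partner receptors, at -1.89, and highest for retinol uptake and storage, at 0.64.

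Of 30 genes known to respond to retinoic acid, which include Crabp2 and Rarb, 26 had a probe and 17 were tested, of which 3 were called higher and 7 lower, at a median log2 ratio of -0.69. Beside these stand 18.8% higher and 25.4% lower over all genes. With both RNAs required above background, 3 were called higher and 4 lower, beside 16.5% and 21.9% of all genes. The lowest response gene was Rarres2, which encodes the secreted protein chemerin, at least 103-fold lower in iPS M13, and the highest was the homeobox gene Hoxa4, at 2.16 ± 0.01 (SD, n = 3; limma, adjusted p = 9.35e-07). Rarres2 was well above background in iPS M13 on 0 of 3 arrays, so it was kept through mix1 alone. Fibroblast and blood cell markers were lower in iPS M13 as well. Summed over the list, fibroblast markers had log2 signals of 14.33 to 14.46 in iPS M13, against 21.35 to 21.42 in mix1, with Postn and Thy1 not above background in iPS M13. The lowest of the list measured in both RNAs were Col3a1, at -10.79, and Dcn, at -10.37. Myeloid and blood cell markers summed to 11.97 to 12.19 in iPS M13, against 18.24 to 18.37 in mix1, with Ctss, Ptprc and Spi1 not above background in iPS M13 and Cd14 and Lyz2 lowest, at -7.49 and -7.43.

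Of 8 marrow stromal markers, 6 were tested, 4 were called lower and 1 higher, and Cxcl12 and Spp1 were lowest, at -7.49 and -5.12. The 1 called higher was Adipoq, at 3.81 ± 0.13 (SD, n = 3), which was well above background in mix1 on 2 of 3 arrays. Their sum was 13.25 to 13.40 in iPS M13, against 17.79 to 17.85 in mix1. Pluripotent cell markers summed to 15.48 to 15.70 in iPS M13, against 12.16 to 12.43 in mix1, where Pou5f1 was not above background, with Dnmt3b and Tdh highest among those measured in both RNAs, at 4.10 and 3.13. The part of each cell type in the ratios of the retinoic acid genes was not tested.

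The promoter of Rarb is shown because it holds a classical target of the receptors measured here. The RefSeq window for Rarb, of 250 bases before and 50 after the start, lies at chr15:11336142-11336441 on the plus strand of build GRCr8. The capitals mark a DR5 element, which is a pair of half-sites of 6 bases spaced by 5 bases, and it lies 25 to 41 bases after the start.
Rarb promoter: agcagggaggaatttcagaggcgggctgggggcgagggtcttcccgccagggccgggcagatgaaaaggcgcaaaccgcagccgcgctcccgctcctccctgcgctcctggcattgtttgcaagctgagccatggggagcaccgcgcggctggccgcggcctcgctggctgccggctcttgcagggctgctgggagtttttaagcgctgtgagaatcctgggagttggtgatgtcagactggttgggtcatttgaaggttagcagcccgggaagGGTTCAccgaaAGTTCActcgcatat

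A DR5 element on either strand, with either purine at the first position and G or T at the third of each half-site, was found in 128 of 33469 such windows (0.382%). Of the 9 genes, with 10 windows, only Rarb had one. This is a match of letters, and no element outside these windows was looked for. Beside it stand the values given above, a log2 ratio of 0.27 for the tested Rarb probe, which was not called, and of -0.69 for the dim one, which was not tested.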

How the data were processed

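Total RNA of 3 iPS M13 samples (Cy3) and of mix1 (Cy5) was hybridised to 3 arrays on 1 slide, scanned on 1 date, per the file headers. Spot intensities were deposited by the authors as Agilent Feature Extraction 9.5.3.1 gave them, per the file headers, with no background subtracted from the mean signals. The processed signals beside them had a detrended background taken off and a dye normalization applied by the software, and the log10 ratios were Cy5 over Cy3, per the file headers. The authors' deposited value table held log2 ratios; set against the log10 ratios its slopes were -3.32 on each array, so it runs as Cy3 over Cy5, with column medians of -0.0413, -0.0282 and -0.0286. Whether its columns were centred is not known.

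Mean signals were corrected by normexp (offset 50) and normalized within arrays by loess in limma 3.58.1 under R 4.3.3 (data.table version 1.17.8), with control spots at weight 0, outlier spots left out (192 to 263 an array) and spots of a probe averaged. The 24177 probes that stood well above background on each array in at least 1 channel, the same each time, were tested against 0 with lmFit and eBayes, with Benjamini-Hochberg adjustment. A probe above background in only 1 RNA entered through that RNA, which favours a ratio towards it. The probe with the highest mean signal stood for a gene. An exact sign-flip test, two-sided, has a smallest p of 0.25 here and was not used. The fit was tested on simulated data. Names, sequences and figures were handled with matplotlib 3.10.9, numpy 2.4.6 and pandas 2.3.3 in Python 3.11.15; gene names and the promoter came from RefSeq, build GRCr8.

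All members are named with every probe. From each pathway list the highest and lowest called gene is named, with Aldh1a3, Rxrg, Cyp26a1, Cyp26b1, Stra6, Rdh10, Dhrs3 and Fabp5 whatever their result (a further gene of this rule is not reported here), and from each marker list the 2 most extreme called genes measured in both RNAs. Adipoq and the Top2b probes were named after their values were seen. The members and lists were chosen with earlier results of these data known. Alternatives were the background correction and its offset, the normalization, the filter on dim probes, the authors' table, the GC trend, the probe rule, the minimum fold and each array left out.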

Additional observations from a re-analysis of the deposited data

How the results depend on the processing

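The counts for all genes stayed within 1.5 times of the reported 8989 calls (3818 higher, 5171 lower) except where given here. Genes called higher were 6318 with the processed signals, 6317 with the authors' value table, 7408 after median centring and 7004 with no normalization within arrays, so that 56.6%, 56.6%, 67.2% and 65.1% of calls were higher, against 42.5% as reported. By adjusted p alone 19547 genes passed (9602 higher, 9945 lower), and at 4-fold 3631 (934 higher, 2697 lower). Of the members, 2 were called as reported, 1 higher and 1 lower. An offset of 0 gave 4 calls with 3 lower, the processed signals and the authors' table gave 2 lower, and adjusted p alone gave 7, with 2 higher and 5 lower. Requiring both RNAs above background gave 1 call and 0 higher, because Aldh1a1 was then not tested. Without 1 array in turn the counts were 8867 to 9116 for all genes, with the same 2 member calls each time. Reversed signs were those of Rarb (-0.023 with the GC trend taken off, -0.21 as the mean of both probes, an alternative chosen after seeing the data that includes the dim probe), where the cause was not tested, and Cyp26b1 (0.39 after median centring and 0.33 with no normalization), settings that raised the median of all genes to 0.58 and 0.52 and left Cyp26b1 at -0.19 relative to it. The list counts and named genes were run through the same alternatives, a step also added after seeing the data: of the log2 ratios recomputed, 331 kept their direction and, where tested, their side of the threshold, 14 were no longer called, 8 became called and 4 reversed, and of the counts 315 stayed within 1.5 times and 66 did not. Signals near background limit Aldh1a2, the dim Rarb probe and the mix1 side of Aldh1a1. No paired analysis was possible because only 1 group carries replicate numbers, so no fit with a replicate block exists; the reported ratios are already taken within each array.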
